A study of Mus musculus with 2 samples.

Results

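Domains of H3K36me3 that overlap no annotated gene were described in E14TG2a.4 mouse embryonic stem cells. Peaks of the pooled set were joined into domains where the gap between them was at most 3 kb, and a domain was kept where it overlapped no GENCODE M21 gene of any type on chromosomes 1 to 19. This left 1593 domains of 21401 in all, or 7.44%, made of 2744 of the 110849 pooled peaks. The other 19808 domains overlap a gene. The cells are a male line of mouse strain 129/Ola, an established embryonic stem cell line described by the labels as embryonic and of age 3.5 days, with no treatment or genotype named. Both libraries were made with an H3K36me3 antibody, as biological replicates 1 and 2 of 1 group, from separate biosamples of 1 line and 1 donor.

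H3K36me3 is trimethylation of lysine 36 of histone 3. In mammals most of it is placed by SETD2, an enzyme that travels with elongating RNA polymerase II, so the mark lies over the bodies of transcribed genes and grows toward their 3′ ends. The mark is bound by readers such as the PWWP domains of the DNA methyltransferases DNMT3A and DNMT3B, which methylate CG pairs. A domain outside gene models is therefore a place where the mark and the annotation can be set side by side.

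As a check on the label, the 6 embryonic stem cell genes Pou5f1, Sox2, Nanog, Zfp42, Klf5 and Tfcp2l1 had between 61.9% and 90.1% of their bodies in peaks in each replicate, while the fibroblast genes Col1a1, Col1a2, Thy1 and Pdgfrb had 0 in both. The peak set of replicate 1 covered 136.9 Mb of chromosomes 1 to 19 in 105480 peaks, and that of replicate 2 covered 124.9 Mb in 96114 peaks. The number of reads behind each library is unknown. With 2 replicates of 1 group no test of a difference was possible, since the smallest two-sided p of a sign-flip test over 2 replicates is 0.5. Values are given per replicate or as mean ± SD (n = 2), and domains were not treated as replicates.

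The sequences below are 300 bases around the summit of the strongest pooled peak of 5 of the domains that head the lists described here, on the plus strand of the RefSeq sequence of GRCm38.p6, the assembly that mm10 names. Capitals mark CG pairs, the pairs that DNA methyltransferases act on. They are shown as the sequence at the domains the results turn on, which are extremes of the 1593, and none of these windows overlaps a RefSeq exon. The longest domain lies upstream of the homeobox gene Nkx1-1 and its window is chr5:33496725-33497024, with 6 CG pairs. The domain farthest from any coding gene with peaks of both replicates, on the Pcdh7 side, has the window chr5:59947826-59948125, with 1 CG pair. The next farthest, on the Stim2 side, has chr5:55795576-55795875, with 5. The domain with the highest fold by the lower of its values in the 2 replicates, upstream of Psmd7, has chr8:107679672-107679971, with 3. The domain with the largest difference between replicates among those of at least 2 kb, beside Hist2h3c2, has chr3:96237667-96237966, with 5.
Nkx1-1 side: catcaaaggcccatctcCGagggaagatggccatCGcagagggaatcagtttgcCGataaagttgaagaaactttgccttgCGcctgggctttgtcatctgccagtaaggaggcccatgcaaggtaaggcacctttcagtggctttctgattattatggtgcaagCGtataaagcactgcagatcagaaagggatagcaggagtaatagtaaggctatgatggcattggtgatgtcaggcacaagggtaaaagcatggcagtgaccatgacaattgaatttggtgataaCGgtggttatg
Pcdh7 side: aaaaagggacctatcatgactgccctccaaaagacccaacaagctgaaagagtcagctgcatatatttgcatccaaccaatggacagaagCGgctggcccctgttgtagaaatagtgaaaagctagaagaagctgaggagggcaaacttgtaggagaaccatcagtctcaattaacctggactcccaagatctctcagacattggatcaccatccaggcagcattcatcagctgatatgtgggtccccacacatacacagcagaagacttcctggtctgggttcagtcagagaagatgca
Stim2 side: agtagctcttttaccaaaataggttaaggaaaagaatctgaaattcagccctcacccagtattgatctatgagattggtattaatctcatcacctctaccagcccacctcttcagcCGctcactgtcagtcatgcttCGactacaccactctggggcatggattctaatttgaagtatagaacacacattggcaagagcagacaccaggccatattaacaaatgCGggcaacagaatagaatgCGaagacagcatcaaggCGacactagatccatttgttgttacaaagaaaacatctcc
Psmd7 side: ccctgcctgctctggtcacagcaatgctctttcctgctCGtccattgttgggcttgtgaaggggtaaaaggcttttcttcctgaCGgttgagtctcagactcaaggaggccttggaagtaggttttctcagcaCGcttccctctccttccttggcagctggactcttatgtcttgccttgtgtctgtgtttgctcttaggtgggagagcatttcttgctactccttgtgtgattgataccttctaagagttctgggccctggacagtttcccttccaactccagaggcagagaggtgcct
Hist2h3c2 side: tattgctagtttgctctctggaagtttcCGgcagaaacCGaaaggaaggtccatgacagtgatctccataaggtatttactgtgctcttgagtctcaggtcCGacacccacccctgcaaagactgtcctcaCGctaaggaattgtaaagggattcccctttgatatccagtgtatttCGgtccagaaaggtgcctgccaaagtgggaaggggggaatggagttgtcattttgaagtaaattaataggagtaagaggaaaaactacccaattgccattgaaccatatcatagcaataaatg
Over all such windows of 300 bases, the median was 2 CG pairs in domains outside genes and 3 in the other domains, and 15.4% against 6.41% held none.

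Domains outside genes were mostly short. Their median size was 618 bp, with quartiles of 378 and 1840 bp and a range from 186 to 57434 bp, against a median of 3984 bp for domains that overlap a gene. A single pooled peak made up 1063 of them, or 66.7%, against 32.1% of the other domains. Only 609 reached 1 kb, 126 reached 5 kb and 27 reached 10 kb. Together they spanned 2.70 Mb, or 1.28% of the bases of all domains. They occurred on every chromosome from 1 to 19, with between 0.424 per Mb on chromosome 14 and 0.877 per Mb on chromosome 11. The count depends on the joining gap: a gap of 1 kb gave 2572 domains and a gap of 10 kb gave 940, while domains built from replicate 1 alone numbered 1066 and those from replicate 2 alone 1330.

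Peaks of both replicates overlapped 576 of the 1593, or 36.2%, where the share over all 21401 domains was 65.5% and over the domains that overlap a gene 67.8%. Replicate 1 alone had a peak in 281, replicate 2 alone in 334, and neither replicate's own set had one in 402, which were called in the pooled set without a call in either library. Of those 402, the unthresholded sets held peaks of both replicates in 209 and of neither in 30. The low support went with size. Among domains under 500 bp, 3.91% of those outside genes and 5.22% of those overlapping a gene had peaks of both replicates. From 500 bp to 1 kb these shares were 27.0% and 26.8%, from 1 to 2 kb 57.8% and 56.9%, from 2 to 5 kb 80.5% and 77.3%, and from 5 kb upward 97.6% and 98.9%. Within each size class the shares lay within 4 points of each other.

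**Figure D1:**
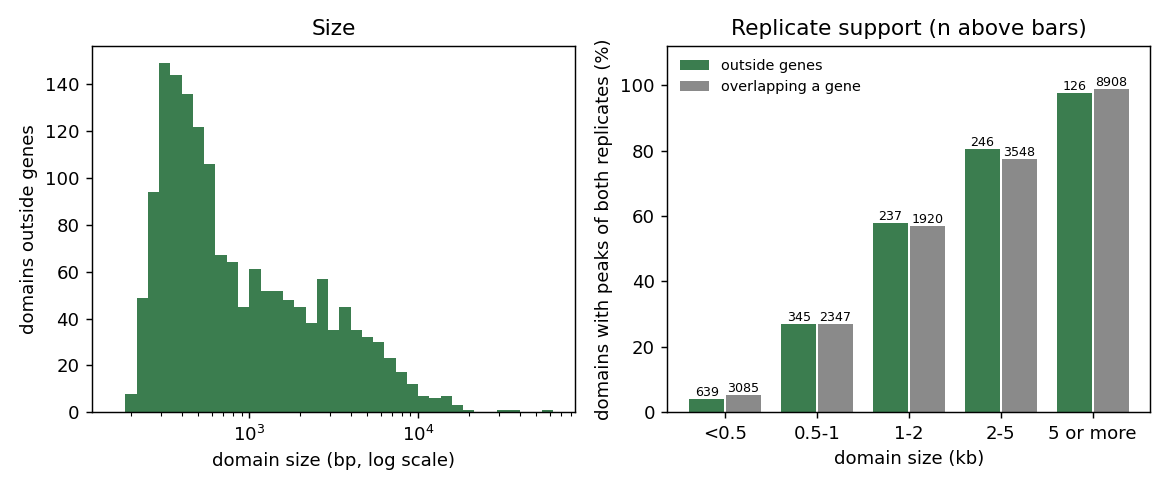
Left, the number of domains outside genes by size in bp on a log axis; right, the percent of domains with peaks of both replicates in each size class in kb, outside genes (green) and overlapping a gene (grey), with the number of domains above each bar. Most domains are under 1 kb, and the paired bars rise together from 3.91% and 5.22% to 97.6% and 98.9%.

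The share of a domain's bases in peaks (its covered share) averaged 32.1% in replicate 1 and 33.95% in replicate 2, a mean of 33.0% ± 1.31 (SD, n = 2). In domains that overlap a gene it was 48.9% and 41.3%, a mean of 45.1% ± 5.42 (SD, n = 2). Over all sizes the difference was 16.8 points in replicate 1 and 7.31 points in replicate 2 (mean 12.1 ± 6.73, SD, n = 2), the same direction in both. In replicate 1 the domains that overlap a gene were covered more in every size class. In replicate 2 the domains outside genes were covered more under 500 bp (27.6% against 19.3%). The same held from 500 bp to 1 kb (40.8% against 32.2%) and from 1 to 2 kb (39.2% against 36.7%). From 2 to 5 kb replicate 2 had 34.55% against 34.9%, and from 5 kb upward 36.5% against 54.8%. Of the bases of domains outside genes, 37.8% and 37.1% were in peaks of replicates 1 and 2. The fold that the authors' caller gave to the strongest pooled peak of each domain had a median of 3.38 outside genes and 4.54 in the other domains. It reached 14.8 outside genes. By size these medians were 3.03 and 3.03 under 500 bp, 3.14 and 3.26 from 500 bp to 1 kb, and 3.84 and 3.73 from 1 to 2 kb. From 2 to 5 kb they were 4.15 and 4.19, and from 5 kb upward 5.12 and 7.92.

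The longest domain, chr5:33476805-33534238, spans 57.4 kb and lies between Nkx1-1, a homeobox transcription factor gene, and Fam53a. It was 78.7% covered in replicate 1 and 81.9% in replicate 2. Its near edge is 42.8 kb upstream of Nkx1-1, which had 0 of its body in peaks in both replicates, and the far edge is 66.1 kb past the 3′ end of Fam53a, whose body was 66.2% and 58.5% covered. No RefSeq gene overlaps it. Its summit sequence is the first of those printed above, and 14.5% of its bases are soft-masked as repeats.

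The second longest, chr4:91211003-91247743, lies 3.02 kb past the GENCODE 3′ end of Elavl2, which encodes a neuronal RNA-binding protein, and spans 36.7 kb. It was 36.9% and 27.4% covered, and 98.6% of it lies inside the longer Elavl2 model of RefSeq. The GENCODE body of Elavl2 was 13.5% and 8.81% covered. The domain was defined as a run of joined peaks and the gene body was not, so these shares are not a like comparison. The third, chr2:172578821-172612057, spans 33.2 kb, 20.2 kb past the 3′ end of Tfap2c, which encodes the transcription factor AP-2 gamma. It was 63.7% and 67.9% covered, Tfap2c itself 52.6% and 65.97%, and 87.7% of the domain lies in Gm36038, a long noncoding RNA gene in RefSeq.

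The fourth, chr8:78069559-78088320, spans 18.8 kb at 125.0 kb upstream of Ttc29, a gene of the sperm flagellum, and was 60.4% and 56.2% covered, while both flanking coding genes, Ttc29 and the endothelin receptor gene Ednra, had 0 in peaks. A RefSeq long noncoding RNA gene, Gm6360, holds 6.08% of it. The fifth, chr5:104572865-104591255, spans 18.4 kb and was 55.5% and 45.1% covered. Of it 63.9% lies in Zfp33b, a zinc finger protein gene in RefSeq. The strongest pooled peak of any domain outside genes, with a fold of 14.8, lies there.

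The other 5 of the 10 longest were between 14.4 and 16.2 kb. The domain upstream of Gli2, a transcription factor of Hedgehog signalling, was 16.6% and 19.4% covered, the lowest of the 10 in both replicates. The domain past Cd9, a tetraspanin gene, was 51.0% and 33.2% covered and lies wholly in the RefSeq long noncoding RNA gene Gm32673. The domain past Sik1, a salt-inducible kinase gene, was 31.9% and 40.5% covered. The RefSeq long noncoding RNA genes Gm41563 and Gm41564 hold 22.2% and 13.2% of it. The domain between the forkhead genes Foxf2 and Foxc1, both with 0 in peaks, was 45.9% and 39.4% covered. The domain past Spry1, an inhibitor of receptor tyrosine kinase signalling, was 77.3% and 69.2% covered, second to that at Nkx1-1, and no RefSeq gene overlaps it. All 10 held peaks of both replicates, with differences between replicates from 2.85 to 17.8 points.

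**Figure D2:**
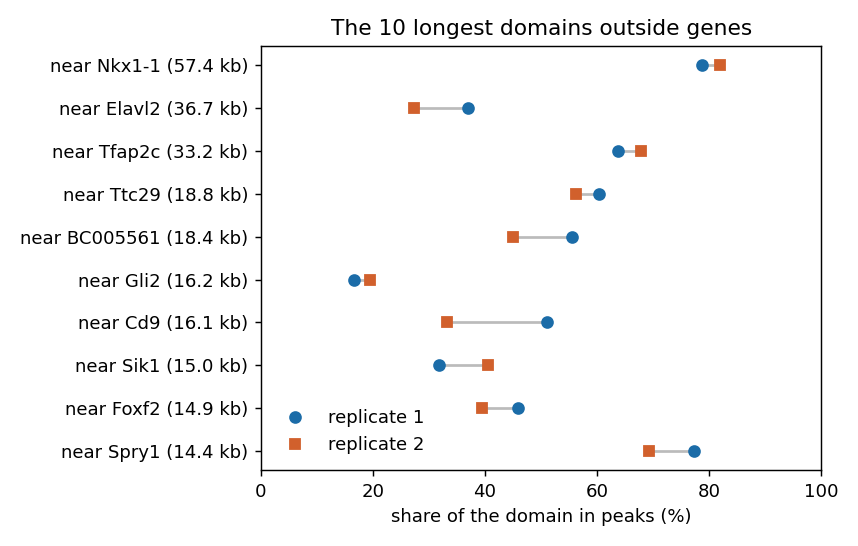
The covered share in percent of each of the 10 longest domains outside genes, in replicate 1 (circles) and replicate 2 (squares), named by the nearest coding gene with the domain's size. The domain near Nkx1-1 is the most covered in both replicates (78.7% and 81.9%) and that near Gli2 the least (16.6% and 19.4%).

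The 5 domains with the highest fold, ranked by the lower of the 2 replicates, include 3 of the longest, near Nkx1-1, Ttc29 and Foxf2. The highest was chr8:107672755-107681492, 8.74 kb long and 84.3 kb upstream of Psmd7, which encodes a subunit of the proteasome's regulatory particle. The fold of its strongest peak was 12.4 (replicate 1) and 11.4 (replicate 2). It was 63.95% and 42.5% covered, Psmd7 itself 80.5% and 80.9%, and no RefSeq gene overlaps the domain. The fifth, 19.8 kb upstream of Ttc39b, is 9.44 kb long and had folds of 8.74 and 10.02 with 77.0% and 67.95% covered.

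Domains outside genes lay at a median of 21216 bp from the nearest coding gene, with quartiles of 5739 and 75059 bp. Over 50 kb from any coding gene were 496, or 31.1%, where 59.9% of all bases outside genes lie that far. Domains built from replicate 1 alone gave 275 over 50 kb and those from replicate 2 alone 448. Over 500 kb were 82 and over 1000 kb were 27. Of the 1593, 1436 had no gene of any type within 1 kb and 1014 none within 5 kb.

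The nearest coding gene presented its 3′ end to 761 domains (47.8%) and its 5′ end to 832 (52.2%). Of the bases outside genes, 46.1% face a 3′ end and 53.9% a 5′ end, within 2 points of the split of the domains. Within 5 kb lay 183 domains past a 3′ end, or 11.5%, and 175 upstream of a 5′ end, or 11.0%, against 4.86% and 5.08% of the bases outside genes. The split by side turned with the processing. It was 56.5% facing 3′ ends with a joining gap of 1 kb, 50.6% in domains built from replicate 2 alone and 49.5% in those from replicate 1 alone. With the gap of 1 kb, 24.8% lay past a 3′ end within 5 kb, and with 10 kb 6.81%. Domains between 2 converging genes made up 21.2% and those between 2 diverging genes 28.25%, against 19.25% and 27.3% of bases.

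The rule sets aside most of the mark that runs past gene ends. Each replicate had 6.74 and 6.03 Mb of peaks outside genes, or 4.92% and 4.83% of its covered bases. Domains outside genes held 15.9% ± 1.03 (SD, n = 2) of these bases, and domains that overlap a gene held 81.6% ± 1.55. Beyond the 3′ ends of coding genes that were marked, meaning that at least 10% of the body was in peaks in each replicate, 49.5% and 45.35% of the first 1 kb outside genes was in peaks of replicates 1 and 2. From 1 to 2 kb it was 27.2% and 23.0%, from 2 to 5 kb 9.42% and 7.62%, and from 5 to 10 kb 2.30% and 1.90%. Domains outside genes held 0.221% of the bases in the first 1 kb there and 1.13% from 20 to 50 kb. Upstream of the 5′ ends of marked genes the peaks covered 1.145% and 0.922% of the first 1 kb and 1.57% and 1.17% from 2 to 5 kb, where domains outside genes held 1.23% of the bases.

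**Figure D3:**
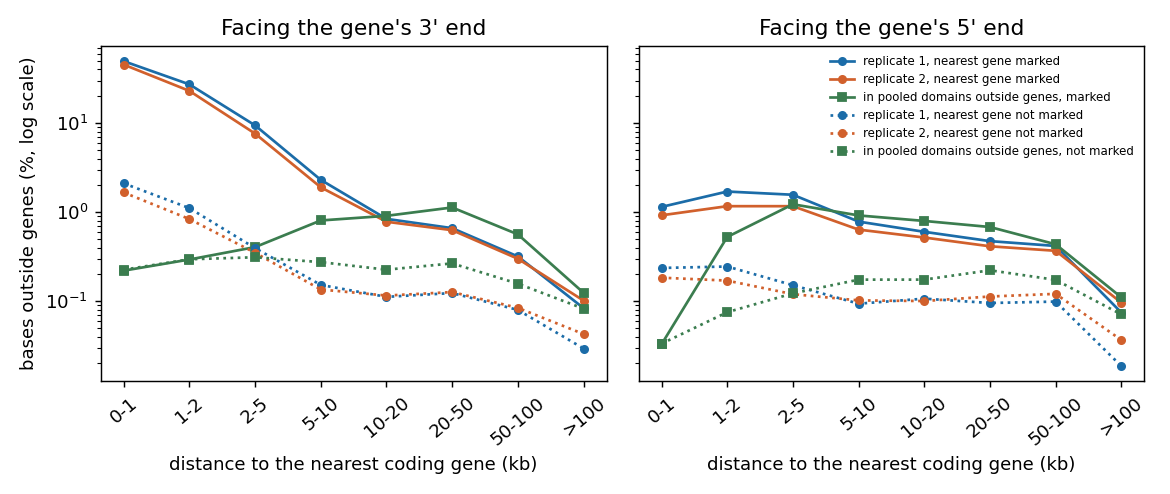
Percent of the bases outside genes that lie in peaks of replicate 1 (blue), in peaks of replicate 2 (orange) or in pooled domains outside genes (green), by distance in kb to the nearest coding gene on a log axis, for bases facing 3′ ends (left) and 5′ ends (right), with marked nearest genes as solid lines. Past the 3′ ends of marked genes the covered share goes from 49.5% and 45.35% in the first 1 kb to 2.30% and 1.90% at 5 to 10 kb, while domains outside genes hold 0.221% and 0.807%.

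The nearest coding gene was marked for 759 of the 1593, or 47.65%. Of all 20807 coding genes 38.4% were marked, and of all bases outside genes 22.8% had a marked nearest coding gene. The share was 54.45% for domains upstream of 5′ ends and 40.2% for those past 3′ ends. Upstream it was 6 of 16 domains within 1 kb, or 37.5%, then 45 of 53 from 1 to 2 kb, or 84.9%, and 87 of 106 from 2 to 5 kb, or 82.1%. Past 3′ ends the nearest gene was marked for 21 of 70 domains within 1 kb, or 30.0%, and for 60 of 98 from 5 to 10 kb, or 61.2%. The rule sets aside domains that overlap a gene, and its part in these shares was not tested. Such domains held 66.5% of the first 1 kb past marked 3′ ends and 3.72% past unmarked ones. From 5 to 10 kb they held 3.95% and 0.135%. Bases outside genes there were 5.03 Mb (marked) and 10.1 Mb (unmarked) within 1 kb, and 9.997 and 28.5 Mb from 5 to 10 kb. Upstream, bases outside genes were 4.78 Mb (marked) and 9.78 Mb (unmarked) within 1 kb. They were 4.22 and 9.16 Mb from 1 to 2 kb, and 10.7 and 24.1 Mb from 2 to 5 kb. Beyond 100 kb the nearest gene was marked for 27.3% of domains past 3′ ends and 32.95% upstream. Bases outside genes that far were 46.3 Mb (marked) and 223.9 Mb (unmarked) past 3′ ends, and 64.8 and 253.7 Mb upstream. With a joining gap of 10 kb the overall share was 34.0%, below the 38.4% of all coding genes and above the 22.8% of bases outside genes. It was 46.8% in domains built from replicate 2 alone and 56.85% in those from replicate 1 alone. There a gene was marked by that replicate alone, while the 38.4% of all coding genes is for marking in both replicates.

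The replicates covered these domains differently by distance from coding genes. Within 10 kb of a coding gene (550 domains) the mean covered share was 39.4% in replicate 1 and 28.6% in replicate 2. From 10 to 50 kb (547 domains) it was 33.4% and 34.95%. Beyond 50 kb (496 domains) it was 22.6% and 38.75%, a difference of 16.2 points in the other direction. Replicate 2 had the higher share in 251 of these far domains and replicate 1 in 110, while within 10 kb the numbers were 158 and 250. The median size changed little, from 635 to 655 to 582 bp, and the median GC content was 46.4%, 46.5% and 44.6%.

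With coverage taken from the unthresholded sets of the other processing run, the shares were 63.8% and 49.0% within 10 kb and 44.6% and 56.4% beyond 50 kb. Among far domains replicate 2 was higher in each of 4 GC classes, from 31.5% against 26.3% at up to 40% GC to 40.4% against 17.75% above 48% GC. Within 10 kb replicate 1 was higher in 3 of the 4 classes, and at up to 40% GC (23 domains) it had 22.7% against 24.25% in replicate 2. Domains that overlap noncoding genes alone, without a coding gene, gave 48.6% and 38.02% within 10 kb of a coding gene (211 domains) and 36.5% and 38.01% beyond 50 kb (209 domains). Replicate 1 was the higher in 138 of the near ones and replicate 2 in 51. Of the far ones replicate 1 was the higher in 99 and replicate 2 in 80, the opposite order to their means. The part of sequencing depth in these differences was not tested. The distance classes were chosen after the values were seen.

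**Figure D4:**
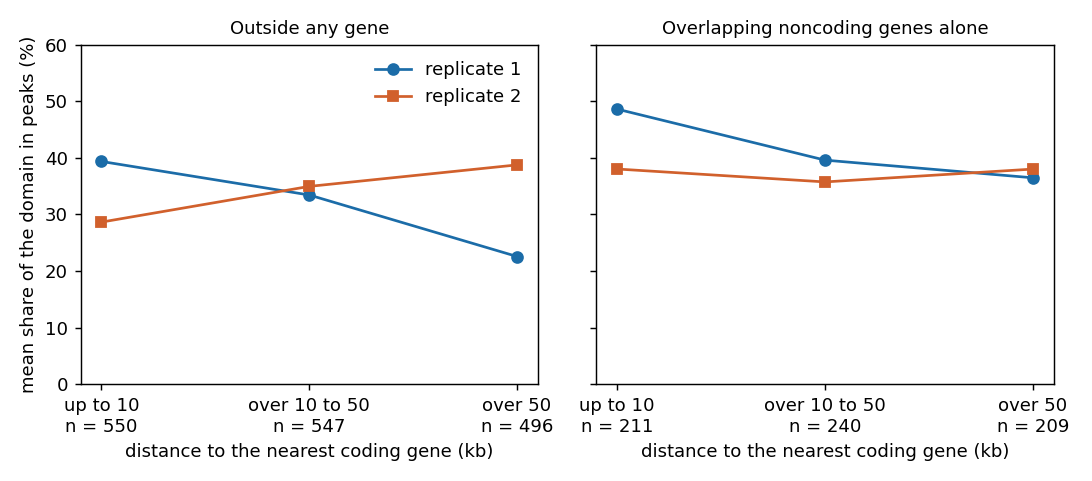
Mean covered share in percent by distance in kb to the nearest coding gene, in replicate 1 (circles) and replicate 2 (squares), for domains outside any gene (left) and domains overlapping noncoding genes alone (right), with the number of domains under each class. Outside genes the order of the replicates changes from 39.4% and 28.6% within 10 kb to 22.6% and 38.75% beyond 50 kb.

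Over 1000 kb from any coding gene, 8 of the 27 domains had peaks of both replicates. The farthest of these, chr5:59947731-59948752, is 1.02 kb long and 1814 kb past the 3′ end of Pcdh7, a protocadherin gene of cell adhesion, with 36.5% and 47.1% covered. The next, chr5:55795389-55795887, is 499 bp long and 1674 kb past Stim2, which encodes a calcium sensor of the endoplasmic reticulum, with 99.0% and 85.6% covered. Both have summit sequences printed above. The third, chr14:91475859-91481576, is 5.72 kb long and 1532 kb past Pcdh9, another protocadherin gene, with 26.3% and 43.8% covered. The longest of the 10 farthest is 6.89 kb and lies 945.5 kb upstream of Fam98a. No RefSeq gene overlaps any of the 10, and the nearest coding gene was marked for 2 of them, Cox7c and Fam98a. Over all domains beyond 100 kb it was marked for 27.3% of those past 3′ ends and 32.95% of those upstream. The GC content of the 10 farthest was 33.5% to 45.95%.

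Some domains form strings. The next domain of any kind lay within 10 kb of 759 of the 1593, and the median distance to it was 10984 bp. Joined over gaps of up to 20 kb, 183 domains made 49 strings of at least 3. Of the 5 coding genes nearest to the most domains, Trim24, which encodes a transcriptional co-regulator of the tripartite motif family, had 11, all upstream, from 15.7 to 142.8 kb away and spanning 127.5 kb. Their bases were 18.6% covered in replicate 1 and 39.4% in replicate 2, and Trim24 itself 70.25% and 65.4%. Gm10260 also had 11, all past its 3′ end from 52.8 to 173.7 kb, with 44.6% and 12.05% covered, the opposite order. The body of Gm10260 had 0 in peaks in both replicates.

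Ttc29 had 7 domains, all upstream, with 59.35% and 51.9% of their bases covered, the fourth longest among them. Chordc1, which encodes a partner of the chaperone HSP90, had 7, spread from 210.4 to 783.9 kb upstream, with 29.3% and 43.2% covered. Sall1, which encodes a zinc finger transcription factor, had 6, of which 4 lie past its 3′ end and 2 upstream, with 63.7% and 46.9% covered beside 71.9% and 58.25% of the gene body.

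**Figure D5:**
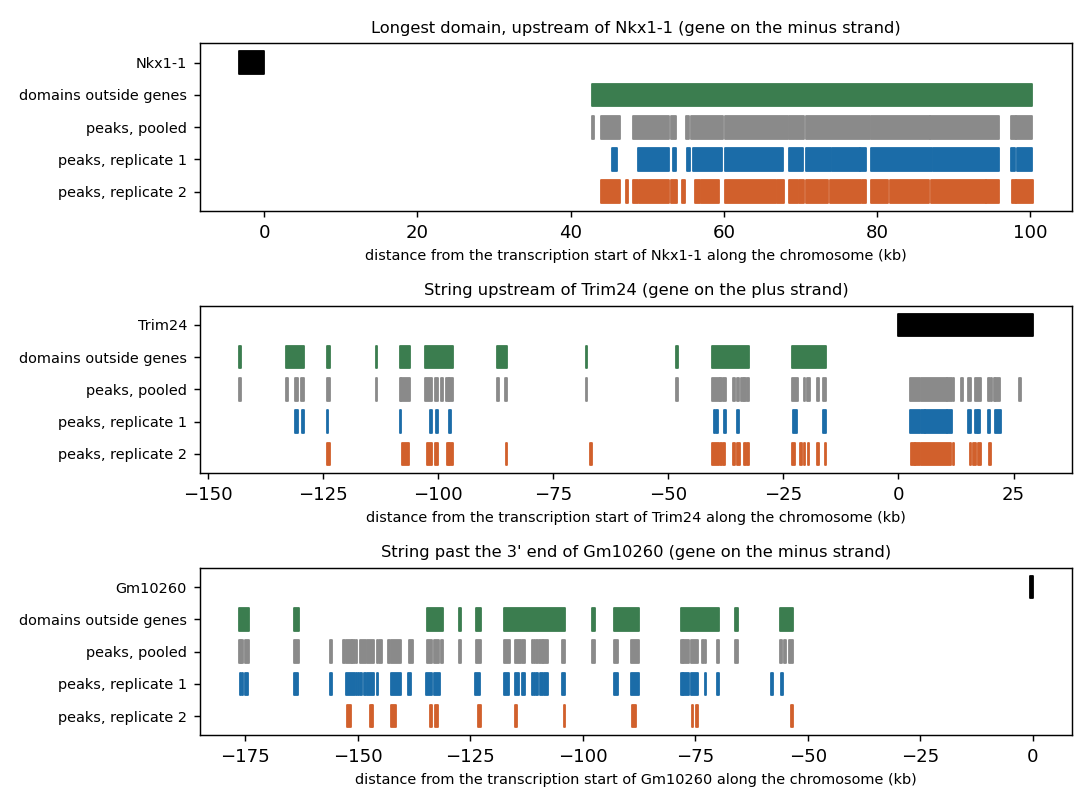
Peaks of the pooled set and of each replicate and the joined domains outside genes (bars) along the chromosome, in kb from the transcription start of Nkx1-1 (top), Trim24 (middle) and Gm10260 (bottom), with the coding gene in black. Pooled peaks with no domain bar lie in domains that overlap a gene of some type. Both replicates fill most of the domain near Nkx1-1, whereas replicate 1 has more of the bases near Gm10260 (44.6% and 12.05%) and replicate 2 more near Trim24 (18.6% and 39.4%).

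Among domains of at least 2 kb, the largest difference between replicates was at chr3:96235272-96237952, which lies 155 bp past the 3′ end of Hist2h3c2, a replication-dependent histone H3 gene. It was 84.3% covered in replicate 1 and 0 in replicate 2. The domain upstream of Adgrv1, an adhesion receptor gene of the inner ear, was 70.4% and 0, and 1 near Gm10260 was 60.8% and 0. In the other direction, the domain 712.1 kb from 1700015G11Rik was 10.5% and 83.7%, and 1 of those near Trim24 was 11.0% and 81.7%. All 5 are 2.04 to 2.72 kb long. Among the 576 domains with peaks of both replicates the median absolute difference was 13.7 points, with the higher share in replicate 1 in 295 and in replicate 2 in 281.

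A second annotation fills a part of the space. RefSeq genes overlap 259 of the 1593, or 16.3%, by at least 1 base. They hold 10.01% of the bases outside GENCODE genes, a share of bases that is not a like comparison for a count of domains. Of these 259, 156 overlap a long noncoding RNA gene, 86 a coding gene, 10 a pseudogene and 7 a gene of another type, and 128 touch an exon. Among the 86, 49 overlap a RefSeq model with the symbol of their nearest GENCODE coding gene, as at Elavl2, with 23 of them past the 3′ end and 26 upstream. Domains that overlap a RefSeq gene averaged 43.15% and 34.5% covered with peaks of both replicates in 47.9%. The 1334 with no RefSeq gene averaged 29.95% and 33.85%, with 33.9% in both. By type, 54.5% of the domains at long noncoding RNA genes had peaks of both replicates, and their median size was 1042 bp. At coding genes 37.2% did, and the median size was 596 bp, as in domains with no RefSeq gene. The part of size in these differences was not tested. Of the 50 longest domains, 15 overlap a RefSeq gene and the rest overlap no gene of either annotation.

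The domains overlap 30 RefSeq coding genes whose symbol is not that of the nearest GENCODE coding gene, and 12 of these had at least 10% of the RefSeq body in peaks in each replicate, where 38.4% of all GENCODE coding genes passed the same threshold. A zinc finger protein is named in the RefSeq product of 6 of the 30, against 2.61% of RefSeq coding genes on chromosomes 1 to 19. The 30 all reach outside GENCODE genes, and the share among RefSeq coding genes that do so was not measured. Zfp33b had 83.7% of its body in the domain described above, and 47.9% and 35.1% in peaks. Gm35588 had 82.0% in a domain of 9763 bp and 63.4% and 65.75% in peaks. Gm51425, whose RefSeq product is zinc finger protein 431-like, had 56.5% in 3 domains and 21.6% and 16.0% in peaks. Of the other 4 zinc finger genes, Zfp607b had 13.5% and 14.7% in peaks, Gm40881 3.15% and 3.59%, Gm38702 1.30% and 0.996%, and Gm31255 0 and 0.699%.

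In CG pairs and repeats, the pooled bases of domains outside genes lay between those of other domains and those of the space around them. The GC content of their pooled bases was 44.7%, against 44.9% in domains that overlap a gene and 41.0% over all bases outside genes. The median GC content per domain was 46.03% against 45.75% in domains that overlap a gene. CG pairs numbered 0.870 per 100 bases, against 1.13 and 0.732. Bases soft-masked as repeats made up 31.7%, against 24.1% and 38.8%, and 30 domains were over 90% soft-masked. The hexamer AATAAA, the common polyadenylation signal, was searched for as these letters on each strand. It occurred 0.750 times per kb on the strand of the nearest coding gene and 0.779 on the other (0.690 and 0.745 in domains facing 3′ ends), against 1.08 per kb and strand over bases outside genes and 0.858 in other domains. Of the windows of 300 bases, 19.2% held it on either strand, against 15.2% in other domains. A match is a match of letters and no mapped cleavage site.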

How the data were processed

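H3K36me3 ChIP-seq peaks of E14TG2a.4 cells were used as the authors deposited them, on mm10: a set for each replicate and a pooled set of peaks kept on pseudoreplicates (random divisions of the reads), with sets found in both replicates and unthresholded sets as alternatives. The deposited fold of each peak is a ratio over background, and p and q are given as −log10 in the deposited files; both are the authors' values and served only to rank or filter within a set. The sources used here do not name the aligner, the caller or the read depth, and control libraries were not used here. Peaks were called by the authors per replicate and on pooled reads, so a difference between replicates can hold depth. A set on mm9 was not used.

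Domains joined pooled peaks within 3 kb and were kept where they shared 0 bases with any of 51229 GENCODE M21 genes on chromosomes 1 to 19. Distance and side refer to the nearest of 20807 coding genes. Covered shares are bases in peaks divided by the domain's bases. RefSeq gene models and sequence are of GRCm38.p6, and soft-masked letters are those of that sequence. Domains have no replication beyond 2 libraries, so shares are described with mean and SD and no p is given. The scripts were tested on simulated domains placed at known distances. The joining gap, peak set, q, replicate, gene margin and domain size were varied. Domains and genes are named where they are the 10 longest, the 10 farthest with peaks of both replicates, the 5 of highest fold, the 5 of at least 2 kb that differ most between replicates, or the 5 coding genes nearest to the most domains; flanking and RefSeq genes, the zinc finger genes and Gm35588 among them, were named after their values were seen. The domains and lists were chosen with earlier results of these data known. Python 3.11.15, numpy 2.4.6, pandas 2.3.3, pysam 0.24.0 and matplotlib 3.10.9 were used.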

Additional observations from a re-analysis of the deposited data

How the results depend on the processing

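Leaving out a replicate gave 1066 to 1330 domains with a median size of 553.5 to 605 bp, 49.5% to 50.6% facing 3′ ends, 13.5% to 15.6% past a 3′ end within 5 kb, 46.8% to 56.85% with a marked nearest gene, and 275 to 448 over 50 kb from any coding gene, the lower count from replicate 1. In these runs the nearest gene was marked by the kept replicate alone. Support by both replicates and the mean covered share have no value with 1 replicate. A joining gap of 1 kb gave 2572 domains, 56.5% facing 3′ ends, 24.8% past a 3′ end within 5 kb, 55.6% with a marked nearest gene and a mean covered share of 37.0%. A gap of 10 kb gave 940, 6.81%, 34.0% and 28.7% for number, place, marked gene and covered share. The unthresholded pooled set gave 3507 domains, a median of 386 bp, 46.1% facing 3′ ends, 7.98% past a 3′ end within 5 kb, 1307 over 50 kb away, 14.1% with peaks of both replicates and 10.6% covered. Peaks found in both replicates of the same run gave a median of 665 bp, 48.96% facing 3′ ends and 29.99% covered; those of the other run gave 30.7% with both and 25.7% covered. A −log10 q of at least 5 gave 744.5 bp, 49.0% facing 3′ ends, 31.6% with both and 28.4% covered.

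With no gene within 1 kb, 46.2% faced 3′ ends and 7.59% lay past one within 5 kb, and with none within 5 kb the number was 1014 with 46.9% and 0%. The 609 domains of at least 1 kb had a median of 2564 bp, 46.8% facing 3′ ends, 180 over 50 kb away, 75.2% with both replicates, 37.45% covered and a median fold of 4.18. Domains with peaks of both replicates had 46.35% facing 3′ ends and a median fold of 4.31. Marked at 25% or 50% of the body, the nearest gene was marked for 37.7% or 23.1%, against 31.0% or 20.02% of coding genes. Peaks of both replicates covering at least 50% were found in 12.9%. Over 20 kb lay 823 domains and over 100 kb 330, and 6.34% and 17.6% lay past a 3′ end within 2 and 10 kb. Coverage from the unthresholded replicate sets gave 73.3% with both and 54.3% covered.

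Replicate 2 minus replicate 1 was 16.2 points beyond 50 kb and -10.7 points within 10 kb, and kept these signs under every alternative run. Beyond 50 kb it came to 10.65 points in the set found in both replicates of the same run, 7.75 in the unthresholded pooled set, 8.905 in domains of at least 1 kb and 7.65 in those with peaks of both replicates. Within 10 kb it came to -4.05 with a gap of 10 kb, -7.14 and -6.07 in the sets found in both replicates, -1.19 in the unthresholded pooled set, -7.01 at the higher q and -4.55 in domains with peaks of both replicates. The distance classes and these alternatives were chosen after the data were seen. The cause of these shifts was not tested. No paired analysis was possible because there is 1 group. Depth is unknown, and its part in the calling of short domains was not tested.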
